A study of Mus musculus with 6 samples.

Results

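The mitochondrial protein import machinery was followed through bulk RNA sequencing of retinal ganglion cells, which send the axons of the optic nerve. Its genes were taken from the deposited table by symbol: every gene named Timm or Tomm, together with Pam16, Dnlz, Grpel1, Grpel2, Pmpca, Pmpcb, Samm50, Chchd4, Gfer, Immp1l and Immp2l. This gave 37 genes of 22413. The 3 knockout libraries came from adult mice with the genotype Tgfbr1flx/flx;Vglut2Cre/+, in which both copies of Tgfbr1, which encodes a type I receptor of the TGF-beta ligands, are floxed and Cre recombinase is driven from the gene of the vesicular glutamate transporter Vglut2 (Slc17a6). The 3 control libraries came from Tgfbr1flx/flx;Vglut2+/+ mice, which carry the same floxed alleles and no Cre, so Cre itself also differs between the groups. Vglut2-driven Cre is not restricted to ganglion cells. The labels do not say how the cells were isolated or whether animals were pooled, so a p-value here reflects the spread between libraries, part of which may be technical.

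Nearly all mitochondrial proteins are encoded in the nucleus, made in the cytosol and imported. The outer membrane translocase (TOM) takes precursors in, and they are then sorted to the outer membrane by the sorting and assembly machinery, to the intermembrane space by a disulfide relay, to the inner membrane by TIM22, or to the matrix by TIM23 and its motor. Small TIM chaperones carry hydrophobic precursors across the intermembrane space, and peptidases then remove targeting sequences. Ganglion cells have long axons rich in mitochondria, and inherited optic neuropathies often arise from mitochondrial gene defects.

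The libraries held 8098891 to 21126291 counts in the knockouts, against 7486359 to 16372260 in the controls. Tgfbr1 had 46, 0 and 793 counts in knockouts 1, 2 and 3, against 1, 0 and 1538 in controls 1, 2 and 3, and these whole-gene counts do not check the labels. Of 16 ganglion cell markers, 9 to 12 reached 10 counts in the knockouts, against 8 to 12 in the controls, with summed levels of 3794 to 7090 and 885.5 to 6250 CPM (counts scaled to the library's total). Pou4f2, a transcription factor that defines ganglion cells, had 1 count over all 6 libraries, and Isl1, another ganglion cell factor, had 0, 7 and 0 counts in the knockouts, against 147, 4782 and 0 in the controls. Pou4f2 was the only 1 of the 16 under 10 counts in every library. Sncg and Nefl were detected in all 6, Sncg at 494.9 to 1834 CPM in the knockouts, against 209.3 to 1536 in the controls. Thy1 and Pou4f1 were detected in 3 knockouts and 2 controls. Rbpms, another of the 16, was detected in 2 knockouts and 3 controls, with 1 count in knockout 1. Control 3 stood apart: its 10 endothelial markers summed to 8012 CPM, against 353.5 to 742.1 CPM in the knockouts and 36.07 and 372.1 CPM in the other controls, its ganglion cell markers were the lowest, and Slc17a6 was at 0. Müller glia markers summed to 873.9 to 2263 CPM in the knockouts, against 1350 and 2188 in controls 1 and 2 and 6599 in control 3. Amacrine markers summed to 200.1 to 875.4 CPM in the knockouts, against 259.1 to 467.7 in the controls. Horizontal cell markers summed to 351.9 to 1093 and 25.91 to 642.3, and bipolar markers to 147.8 to 179.5 and 0 to 163.1. Those of pericytes and smooth muscle summed to 46.58 to 344.0 CPM in the knockouts, against 0.0861 to 546.2 in the controls, microglia to 0.494 to 263.7 and 1.12 to 134.1, astrocytes to 0.123 to 137.3 and 0.366 to 69.86, and pigment epithelium to 0.864 to 44.21 and 0.134 to 0.794. Cone markers summed to 0.215 to 49.09 CPM in the knockouts, against 0 to 1294 in the controls, rod markers to 0.0473 to 12.96 and 0 to 7.21, and erythrocyte markers to at most 0.646 and 0. Only 3 of the 6 cone markers were in the table, and Opn1mw and Gnat2 stayed under 10 counts in every library. The cone sum of 1294 CPM was thus Gngt2 in control 3, and controls 1 and 2 were at 0.0861 and 0 CPM. Under 10 counts in every library were 5 of the 7 rod markers in the table, Gnat1 and Sag among them, and 3 of 5 astrocyte markers, Gfap among them. So were 3 of 7 microglia and macrophage markers, Cx3cr1 and P2ry12 among them. The remaining rod, astrocyte, microglia and macrophage markers in the table each reached 10 counts in some library. Dkk3 of Müller glia, Slc6a9 and Chat of amacrine cells, and Vsx1 and Grm6 of bipolar cells did not. Nor did Rpe65 and Ttr of the pigment epithelium or the 3 erythrocyte markers in the table. The part of these cell types in the results below was not tested.

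Import genes were found in more knockout than control libraries, to the same degree as genes in general. With 10 counts or more taken as detection, 24, 28 and 25 of the 37 genes were detected in knockouts 1, 2 and 3, against 19, 18 and 17 in controls 1, 2 and 3. The 2 groups did not overlap. The means were 25.7 ± 2.08 in the knockouts, against 18.0 ± 1.00 in the controls (SD, n = 3 each), a ratio of 1.43, and for all genes the ratio of the mean numbers detected was 1.45. After each library was thinned to 7486359 counts, the import genes detected numbered 23, 28 and 25 in the knockouts and stayed at 19, 18 and 17 in the controls. In a bulk library, fewer cells of a type and less RNA per cell cannot be told apart.

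**Figure D1:**
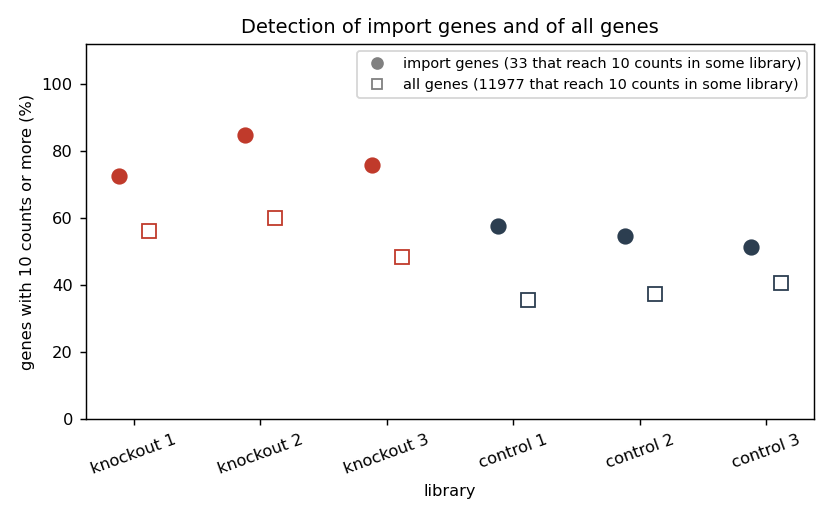
Percentage of genes with 10 counts or more in each library (horizontal axis: library; vertical axis: percent), for the 33 import genes (filled circles) and the 11977 genes of the whole table (open squares) that reach 10 counts in some library; knockouts are red and controls dark blue. Import genes lie at 72.7 to 84.8% in the knockouts and 51.5 to 57.6% in the controls, and all genes at 48.3 to 60.2% and 35.6 to 40.6%.

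Of the 37 genes, 33 reached 10 counts in some library. More knockouts than controls detected 18 of these 33 (54.5%), against 54.8% of the 11977 genes of the table that reached 10 counts anywhere, and fewer knockouts than controls detected 5 (15.2%), against 18.9%. Both shares are near those of the whole table. The import genes were, however, seen more widely: 9 of the 33 (27.3%) were detected in all 6 libraries, against 9.99% of all genes. These 9 were Dnlz, Grpel1, Timm8b, Timm10b, Timm17a, Tomm5, Tomm6, Tomm7 and Tomm20. Values were mostly either absent or high. Of 198 values of the 33 genes, 55 were 0 (27.8%), 12 were 1 to 9 counts (6.06%), and 115 were 100 counts or more (58.1%), and over all genes reaching 10 counts the same classes held 39.3%, 14.3% and 38.8% of values. Immp2l, Timm8a2, Timm9 and Tomm20l stayed under 10 counts everywhere, with at most 4 counts in a library, and a count of 0 allows up to 3 counts, which is 0.142 to 0.370 CPM in the knockouts, against 0.183 to 0.401 CPM in the controls. Such limits and the fold bounds below reflect counting error alone, because reads were not collapsed to molecules.

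**Figure D2:**
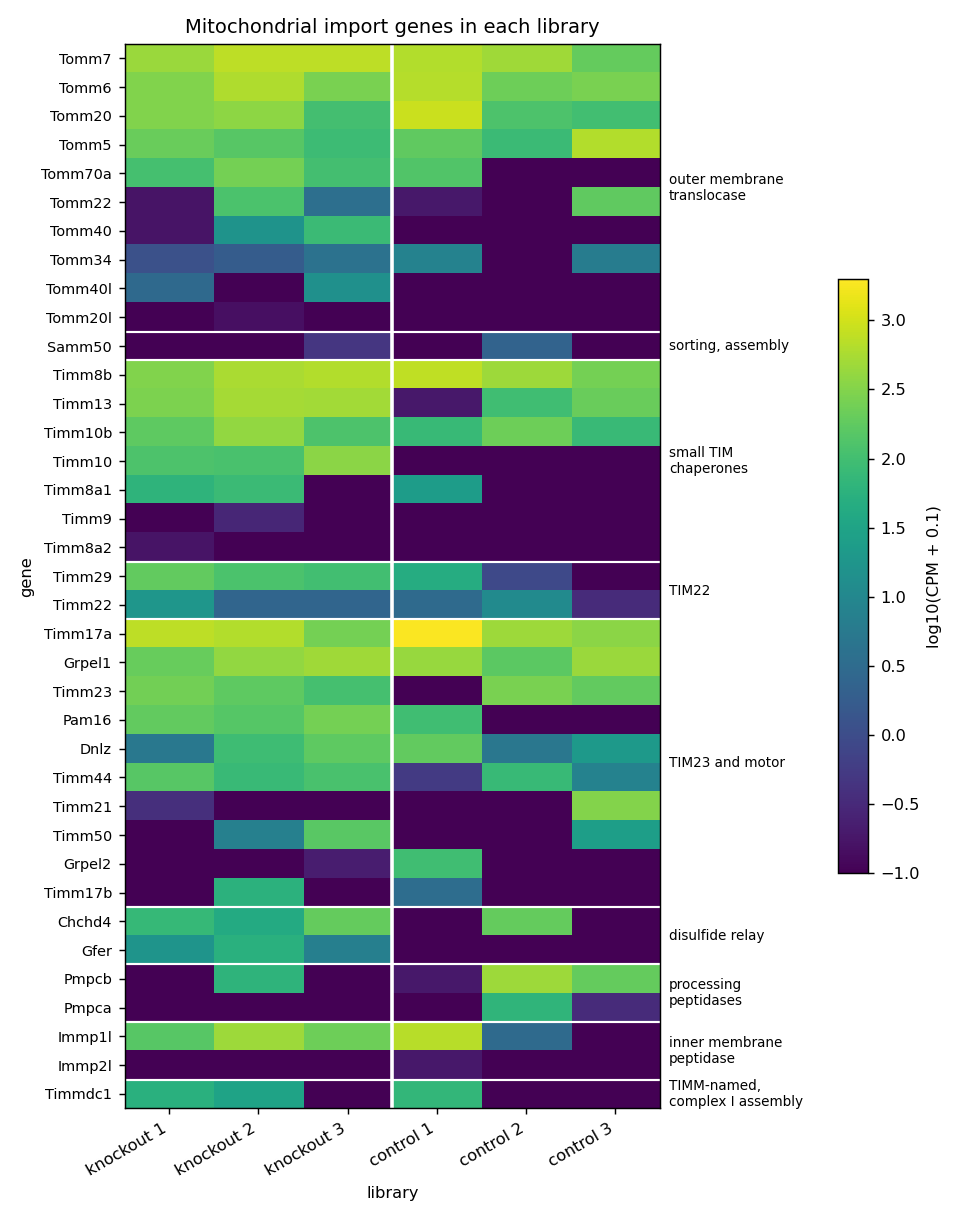
Level of each of the 37 import genes (rows, grouped by role) in each library (columns), as log10(CPM + 0.1), with the darkest colour for 0 counts. Tomm5, Tomm6, Tomm7, Timm8b, Timm17a and Grpel1 are bright in all 6 libraries, Timm10 and Gfer are dark in all 3 controls, and many other genes switch between bright and dark within a genotype.

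No import gene passed the comparison of knockout with control. The test was edgeR's quasi-likelihood test with Benjamini-Hochberg adjustment over all 5727 genes kept by the low-count filter, at an adjusted p of 0.05. It tested 26 of the 37 genes and called 0, as it did for all genes (0.0%), and the smallest adjusted p was 0.68 among the members and over the table. At an unadjusted p under 0.05, 2 members were higher in the knockout, Timm10 and Gfer, and 0 were lower (all tested genes: 4.44% and 0.471%). Of the 26, 18 had a positive log2 fold change (69.2%), against 52.3% of all tested genes, and the median was 0.46, against 0.08 for all tested genes, 3 libraries a group. The standard errors of the 26 fold changes ran from 0.75 to 4.69 on the log2 scale, with a median of 2.75. A gene that passed the filter only through its knockout counts, as Timm10 and Gfer did, had to differ in that direction.

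DESeq2 called 3 of the 25 members it gave an adjusted p (12%): Timm10 (adjusted p = 0.00147), Gfer (adjusted p = 0.00884) and Tomm40 (adjusted p = 0.0116), all higher in the knockout, as were 12.6% of all genes it tested, with 2.39% lower. Limma voom called Timm10 (adjusted p = 0.0348), 1 of 26 members, where 1.36% of all genes were called higher and 0.122% lower. Of all DESeq2 calls, 859 of 885 were genes under 10 counts in every library of 1 genotype, and Timm10, Gfer and Tomm40 were such genes.

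For 6 of the 26 tested members (23.1%) the lowest knockout lay above the highest control: Timm10, Gfer, Timm13, Timm29, Timm44 and Pam16. Of all tested genes 10.4% did so, and 2.3% lay the other way, as did 0 members. The same 6 genes did so when libraries were scaled by TMM or by the size factors of DESeq2. For Timm10 and Gfer, with 0 counts in every control, passing the filter fixed this outcome under any scaling, so their place among the 6 carries no further information. Timm13, Timm29, Timm44 and Pam16 were detected in 2, 1, 2 and 1 controls. They too needed knockout reads to pass the filter, which leans towards this outcome. The 10.4% of all tested genes comes from the same filter. Leaving out a library can only add genes to the count of members without overlap. It was 9 of 26 without control 1, against 17.3% of all tested genes, and 6 of 26 without control 3, against 19.4%.

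**Figure D3:**
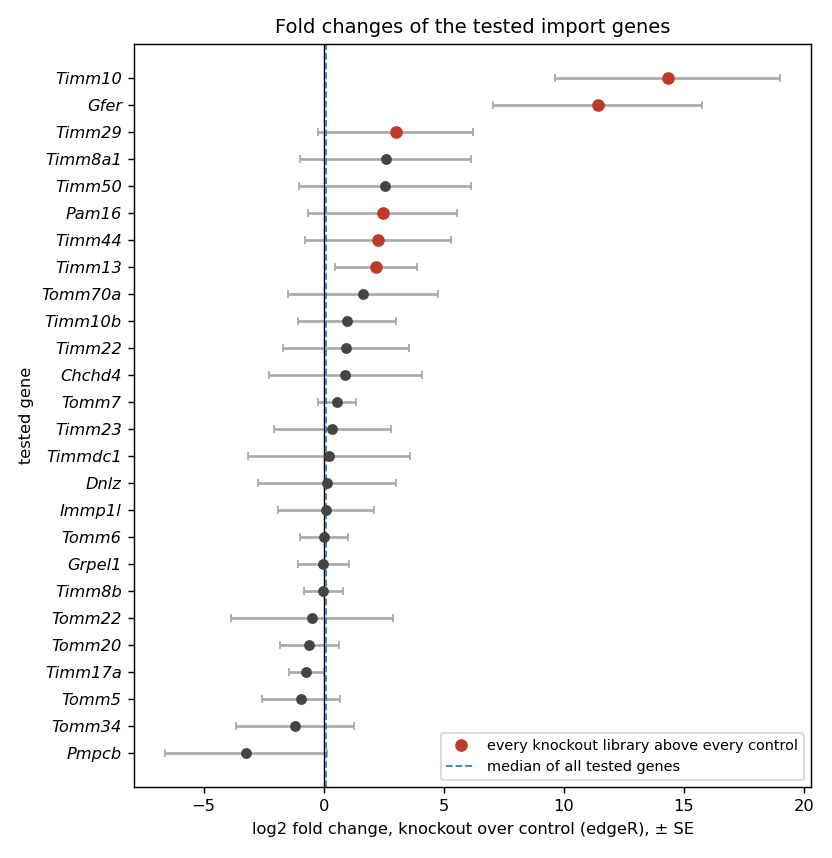
Log2 fold change of knockout over control with its SE for the 26 tested import genes (horizontal axis: log2 fold change from edgeR; vertical axis: gene), with genes whose knockout libraries all lie above all controls in red and the median of all tested genes as a dashed line. Intervals of 1 SE cover 0 for 23 of the 26 genes, and the fitted values of Timm10 and Gfer, which had 0 counts in every control, depend on the prior count and are no measure of size.

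At the outer membrane, the small TOM subunits and the receptor Tomm20 were present in every library and the pore gene was not. Tomm7, a small subunit that modulates assembly of the complex, was at 451, 748 and 736 CPM in knockouts 1, 2 and 3, against 637, 495 and 190.4 CPM in controls 1, 2 and 3. The groups overlapped, control 3 being lowest, and the log2 fold change was 0.55 ± 0.78 (edgeR, n = 3 each). Tomm6, which stabilises the complex, was at 305, 623 and 276 CPM in the knockouts, against 674, 222 and 270.2 CPM in the controls, so the groups covered much the same range. Its annotated exons share 859 bases with Gm21981 on the same strand and 219 with the antisense Tomm6os, so its reads are uncertain. Tomm5 was at 212, 155 and 87.3 CPM in the knockouts, against 181, 84.0 and 646 CPM in the controls, with control 3 far above the rest. Tomm20, the receptor for presequences, was at 307, 365 and 104 CPM in the knockouts, against 913, 126 and 99.01 CPM in the controls, with control 1 above all others.

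Tomm40, which forms the channel itself, had 1, 334 and 680 counts in the knockouts, against 0 in every control. It was thus detected in 2 knockouts, at 15.8 and 84.0 CPM, did not pass the low-count filter, and its depth-scaled knockout total was higher by at least 278-fold, with 3 counts over the control group as the floor. The bound was 113-fold without knockout 3 and 149.7-fold without control 3. Tomm22, the central receptor, had 1, 2545 and 29 counts in the knockouts, against 1, 0 and 2864 in the controls, so a high library was found in each genotype. Tomm40 and Tomm22 were detected together in 2 knockouts and 0 controls, the latter fixed by the absence of Tomm40 reads in the controls. Tomm70a, the receptor for carrier precursors and a docking site for cytosolic chaperones, was at 106, 249 and 105 CPM in the knockouts, against 133 CPM in control 1 and 0 counts in controls 2 and 3. Tomm34, a cytosolic cochaperone, stayed at 1.08 to 4.08 CPM in the knockouts, against 0 to 8.01 CPM in the controls. Tomm40l, a paralogue of Tomm40, had 40, 0 and 117 counts in the knockouts, against 0 in the controls, and 3304 bases of its exons overlap Nr1i3 on the other strand. Samm50, the core of the sorting and assembly machinery that inserts outer membrane barrels, had 0, 0 and 3 counts in the knockouts, against 0, 17 and 0 in the controls. Summed over the 10 outer membrane translocase genes, levels were 1385, 2278 and 1414 CPM in the knockouts, against 2547, 928 and 1387 CPM in the controls, and the groups overlapped.

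Among the small TIM chaperones, Timm10 and Timm13 were higher in every knockout than in any control. Timm10 (mouse build GRCm38, called mm10, chromosome 2, 84827021 to 84830213) forms with Timm9 the hexamer that carries metabolite carriers to TIM22. It was at 125, 118 and 362 CPM in knockouts 1, 2 and 3 (1741, 2489 and 2929 counts) and had 0 counts in every control. All 3 knockouts were thus high and no control held a read, and their depth-scaled total was higher by at least 1961-fold with a floor of 3 counts over the control group (1056-fold without control 3). The unadjusted p was 0.00642 and the adjusted p 0.68 in edgeR, and with 1 library left out the adjusted p ran from 0.417 to 0.815. Timm10 and Gfer were the 2 members (6.06% of 33) detected in all 3 knockouts and no control, against 2.29% of all genes reaching 10 counts. Timm9, the partner of Timm10, had 0, 4 and 0 counts in the knockouts, against 0 in the controls, so the pair was never detected together.

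Timm13, which pairs with Timm8 proteins to escort precursors such as Timm23, was at 283, 521 and 512 CPM in the knockouts and at 0.0861, 97.4 and 209 CPM in the controls. The means were 439 ± 135 and 102 ± 104 CPM, and the lowest knockout lay above the highest control. Timm8a1, whose human orthologue is mutated in a deafness and dystonia syndrome with visual loss, was at 63.4, 85.2 and 0 CPM in the knockouts, against 23.5, 0 and 0 CPM in the controls, so 0 values occurred in both genotypes. Timm8b was the highest of the 37 genes per length, with a mean FPKM (counts scaled to gene length and library total) of 1003 over the 6 libraries. On the CPM scale it was at 303, 568 and 647 in the knockouts, against 781, 466 and 249 in the controls, a log2 fold change of -0.01 ± 0.82, and the groups overlapped throughout. Timm10b, which works at the TIM22 complex, was at 171, 397 and 126 CPM in the knockouts, against 78.8, 223 and 81.7 CPM in the controls. Its exons share 376 bases with Gm45799 on the same strand and 277 with Arfip2 on the other, so its reads are uncertain. Summed over the 7 small TIM genes, the knockouts held 945, 1689 and 1647 CPM and the controls 883, 786 and 540 CPM. All knockouts lay above all controls, by a narrow margin between knockout 1 and control 1. Without Timm10, at 0 in every control, knockout 1 was at 820 CPM, below control 1 at 883 CPM, and the groups also overlapped without Timm10b or without Timm13.

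The start regions of 3 of these genes are shown because their levels differ so widely: Timm10 and Gfer were at 0 in the controls, and Timm8b was high in all 6 libraries. Each sequence runs from 250 bases before to 50 bases after the gene's start, read on the gene's strand from RefSeq, build GRCm38.p6. Capitals mark matches on either strand to CCGGAAG, the core bound by ETS factors such as GABP (NRF-2), or to TGCGCA, the repeated core of the NRF-1 site, both known regulators of nuclear genes for mitochondrial proteins. The regions are chr2:84826771-84827070 on the plus strand for Timm10, chr17:24696107-24696406 on the minus strand for Gfer and chr9:50603651-50603950 on the plus strand for Timm8b.
Timm10: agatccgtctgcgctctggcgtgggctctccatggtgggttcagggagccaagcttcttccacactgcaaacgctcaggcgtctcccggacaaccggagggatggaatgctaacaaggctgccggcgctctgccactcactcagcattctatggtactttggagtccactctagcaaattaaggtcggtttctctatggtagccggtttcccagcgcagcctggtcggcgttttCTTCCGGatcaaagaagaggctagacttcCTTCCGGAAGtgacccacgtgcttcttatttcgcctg
Gfer: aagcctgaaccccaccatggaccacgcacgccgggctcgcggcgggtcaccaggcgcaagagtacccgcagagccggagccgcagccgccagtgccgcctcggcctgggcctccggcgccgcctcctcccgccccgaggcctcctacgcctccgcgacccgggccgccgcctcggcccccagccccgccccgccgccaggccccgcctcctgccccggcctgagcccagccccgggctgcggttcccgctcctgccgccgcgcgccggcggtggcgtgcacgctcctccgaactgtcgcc
Timm8b: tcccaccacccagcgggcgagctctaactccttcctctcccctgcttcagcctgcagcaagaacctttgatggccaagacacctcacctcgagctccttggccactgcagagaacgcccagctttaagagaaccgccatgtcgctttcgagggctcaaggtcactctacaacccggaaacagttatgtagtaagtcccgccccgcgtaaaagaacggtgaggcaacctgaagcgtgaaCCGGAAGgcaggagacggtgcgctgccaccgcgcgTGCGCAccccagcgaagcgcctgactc
Timm10 held 3 matches to the ETS core, of which 2 overlap on opposite strands, and Gfer held 0 matches to either motif. Timm8b held 1 match to each. Of the 33 import genes with such a sequence in the table, 14 held the ETS core (42.4%), against 8.86% of all 32851 start regions and 12.9% of 17492 protein-coding genes. The NRF-1 core was found in 6 import genes (18.2%), Pam16, Timm8b, Timm13, Timm23, Tomm20 and Tomm34, against 7.76% of all start regions and 11% of protein-coding genes. A match is a description of the letters and not a bound site.

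At the inner membrane, both TIM22 genes were detected in all 3 knockouts. Timm29, a subunit of the human TIM22 complex, was at 185, 120.4 and 98.9 CPM in the knockouts, against 46.6, 0.801 and 0 CPM in the controls. Every knockout lay above every control, and the log2 fold change was 2.998 ± 3.24 (edgeR unadjusted p = 0.366). Without control 1 it was 8.80 (adjusted p = 0.453), since the controls then held 6 counts. Timm22, the channel for carrier proteins, was low throughout, at 18.2, 2.46 and 2.47 CPM in the knockouts, against 3.01, 11.5 and 0.244 CPM in the controls. Timm22 and Timm29 were detected together in 3 knockouts and 1 control.

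**Figure D4:**
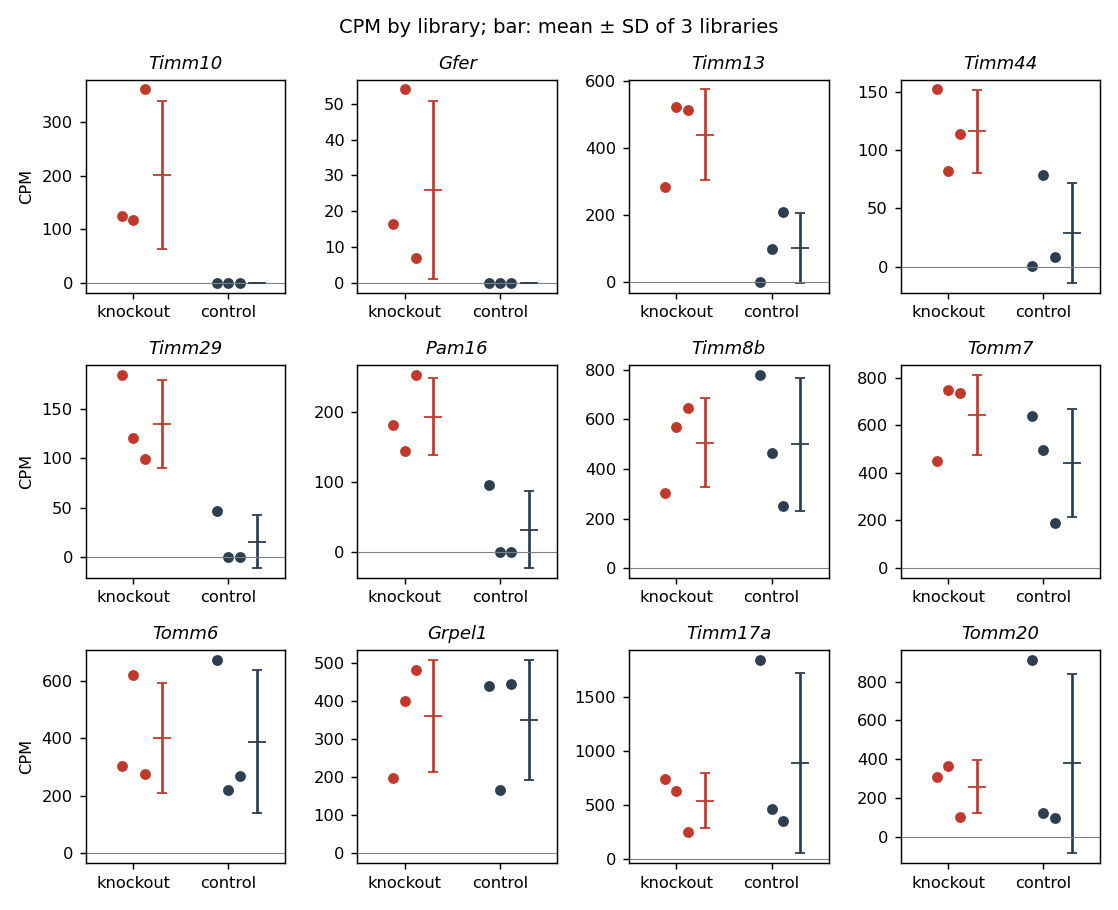
CPM of 12 import genes in each library (vertical axes start near 0 and differ in scale), with points for the 3 knockouts (red) and 3 controls (dark blue) and bars for mean ± SD. In Timm10, Gfer, Timm13, Timm44, Timm29 and Pam16 all knockouts lie above all controls, and in Timm8b, Tomm7, Tomm6, Grpel1, Timm17a and Tomm20, detected in every library, the groups overlap.

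TIM23, the channel to the matrix, showed no common direction. Timm17a, a channel subunit with the highest mean CPM of the 37 genes, was at 743, 633 and 254 CPM in the knockouts, against 1847, 466 and 350.4 CPM in the controls. Control 1 stood far above the others, and the log2 fold change of -0.72 ± 0.75 became 0.70 without it. Timm23, the channel core, was at 239, 173 and 107 CPM in the knockouts, against 0, 277 and 186 CPM in the controls, so all controls but the first lay within or above the knockout range. Timm17b, the paralogue of Timm17a on the X chromosome, had 0, 1212 and 0 counts in the knockouts, against 39, 0 and 0 in the controls. Timm50, the receptor that hands presequences to Timm23, had 0, 153 and 1278 counts in the knockouts, against 0, 0 and 425 in the controls. Timm21, which links TIM23 to the outer membrane translocase, had 5113 counts in control 3 and at most 4 in any other library. Control 3 is also the library with the highest Tomm5, the highest Tomm22 and the raised endothelial and Müller glia markers.

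Of the motor that pulls precursors into the matrix, Timm44, Pam16, Grpel1 and Dnlz were detected in all 3 knockouts, and Pam16 in control 1 alone among the controls. Timm44, which tethers the motor's heat shock protein to the channel, was at 152, 81.7 and 114 CPM in the knockouts, against 0.431, 78.4 and 7.94 CPM in the controls. The lowest knockout and the highest control were close, and the means were 116 ± 35.2 and 28.9 ± 43.0 CPM. Pam16, which controls the J-protein of the motor, was at 182, 145 and 254 CPM in the knockouts and 95.9 CPM in control 1, with 0 counts in controls 2 and 3. Its exons overlap those of Glis2 on the other strand by 455 bases, and the strand setting is not known, so its reads are uncertain too. Opposite-strand overlaps also touch 411 bases of Grpel1 (with Tada2b), 258 of Tomm40 (with Gm20512) and 107 of Timm29 (with Yipf2). Timm44 and Pam16 were detected together in all 3 knockouts and 0 controls. Timm23 was detected with Timm17a in 3 knockouts and 2 controls, and with Timm50 in 2 and 1. Timm17a and Timm17b shared 1 knockout and 1 control, and Grpel1 and Grpel2 shared 0 and 1. Tomm20 and Tomm70a shared 3 and 1, and Timm8a1 and Timm13 shared 2 and 0. No such share was computed over gene pairs in general, and the knockouts detected more genes of any kind. Grpel1, the nucleotide exchange factor that recharges the motor, was at 198, 401 and 483 CPM in the knockouts, against 439.6, 167 and 445 CPM in the controls. Its highest value was 2.89 times its lowest, the smallest spread of the 9 genes found in all libraries, and its means of 361 ± 147 and 350.5 ± 159 CPM differed by less than the spread within either group. Its paralogue Grpel2 had 1114 counts in control 1 and at most 1 elsewhere. Dnlz, which keeps the motor's heat shock protein soluble in human cells, ranged 37.1-fold, with 5.09, 93.6 and 171 CPM in the knockouts, against 184, 4.94 and 21.4 CPM in the controls. Summed over the 10 genes of TIM23 and its motor, the knockouts held 1519, 1592 and 1542 CPM and the controls 2666, 994 and 1349 CPM. The knockouts were close to each other and lay inside the range of the controls.

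**Figure D5:**
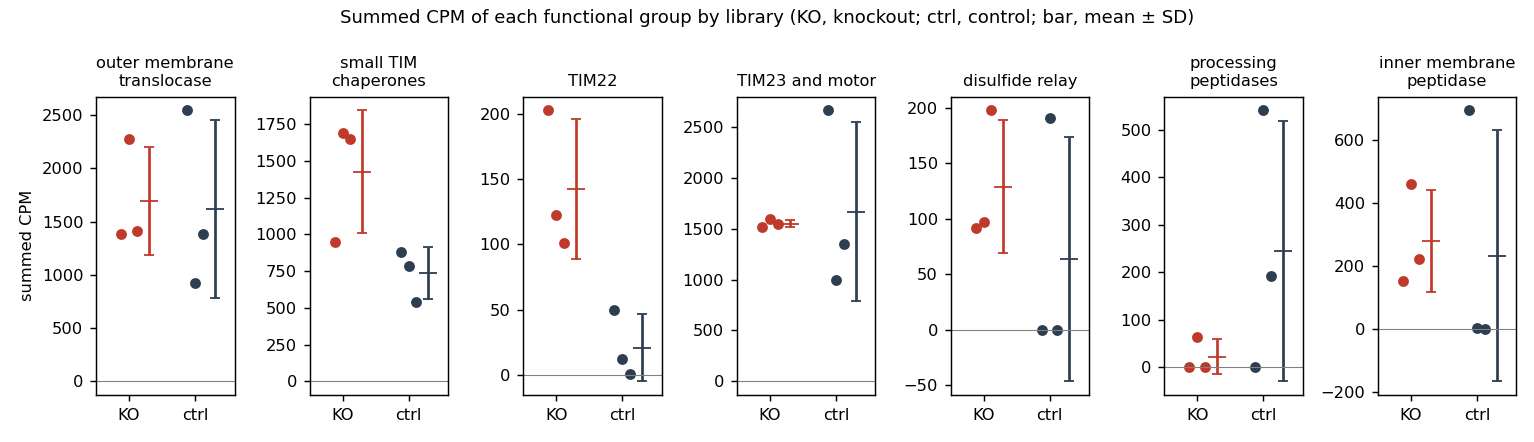
Summed CPM of 7 functional groups of import genes by library (vertical axes differ in scale), with points for knockouts (KO, red) and controls (ctrl, dark blue) and bars for mean ± SD of 3 libraries. The knockouts lie above the controls for the small TIM chaperones (not without Timm10, Timm10b or Timm13) and TIM22 (not without Timm29), and the groups overlap in the other 5 panels.

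The disulfide relay folds small cysteine-rich proteins in the intermembrane space, the small TIM chaperones among them. Chchd4 (MIA40), its oxidoreductase, was at 75.3, 42.6 and 191 CPM in the knockouts, against 191 CPM in control 2 and 0 counts in controls 1 and 3. The log2 fold change was 0.89 ± 3.19, and without control 2 it was 13.47 (adjusted p = 0.468), since Chchd4 then had no control read. Gfer (chromosome 17, 24693190 to 24696156), the sulfhydryl oxidase that recharges Chchd4, was at 16.4, 54.0 and 7.04 CPM in the knockouts (229, 1141 and 57 counts) and had 0 counts in every control. Its depth-scaled total in the knockouts was higher by at least 391-fold, with a floor of 3 counts over the control group. The bound was 153-fold without knockout 2, which held most of the reads, and 210-fold without control 3. The unadjusted p was 0.0164 and the adjusted p 0.68 in edgeR. Chchd4 and Gfer were detected together in all 3 knockouts and 0 controls, the latter fixed by the absence of Gfer reads in the controls.

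The matrix processing peptidase had more reads in the controls. Pmpcb, its catalytic subunit, had 0, 1346 and 0 counts in the knockouts, against 1, 3559 and 3128 in the controls. Its mean was 21.2 ± 36.8 CPM in the knockouts, against 222 ± 239 CPM in the controls, and the log2 fold change was -3.24 ± 3.36 (edgeR unadjusted p = 0.346), or -14.08 without knockout 2 (adjusted p = 0.955), the knockout that held its reads. Pmpca, the other subunit, had 0 counts in every knockout and 0, 490 and 4 in the controls, at least 200.4-fold lower in the knockout with a floor of 3 counts over the knockout group, and rested on control 2, without which 4 counts were left and the bound was 2.06-fold (102-fold without knockout 2, 369-fold without control 3). Both subunits were detected together in control 2 and in 0 knockouts, the latter fixed by the absence of Pmpca reads in the knockouts. Immp1l of the inner membrane peptidase, detected in more knockouts than controls, was at 150.5, 461 and 222 CPM in the knockouts, against 694, 2.94 and 0 CPM in the controls, a log2 fold change of 0.10 ± 2.01 that was 7.90 without control 1. Timmdc1, which despite its name assists assembly of respiratory complex I, had 741, 654 and 0 counts in the knockouts, against 815, 0 and 0 in the controls, with a log2 fold change of 0.22 ± 3.38 that was 11.74 without control 1.

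Over all 37 genes, the summed level did not separate the genotypes. It was 4348, 6334 and 5125 CPM in knockouts 1, 2 and 3 and 6910, 3457 and 3467 CPM in controls 1, 2 and 3, with means of 5269 ± 1001 and 4611 ± 1990 CPM. Control 1 was the highest of the 6 libraries and the other controls the lowest. The difference of 657 CPM became -69.6 CPM with DESeq2's size factors. The 5 genes with the highest CPM in a library made up 48.5 to 53.5% of this sum in the knockouts and 58.4 to 71.0% in the controls. Fewer genes were detected in the controls, import genes and genes in general alike. The same share was not computed for other sets of genes, so it is not a trait of the import genes.

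Genes related to the import machinery but outside it gave 0 edgeR calls as well. In 6 related lists, 60 of 62 genes were in the table and 40 were tested, 25 with a positive (62.5%) and 15 with a negative log2 fold change, against 52.3% positive over all tested genes. None had an unadjusted p under 0.05 in edgeR's quasi-likelihood test, in either direction. DESeq2 called 2 of the 37 it gave an adjusted p (5.41%), against 12.6% of all genes called higher and 2.39% lower. They were Apoo of the cristae complex (adjusted p = 0.00877) and the copper protein gene Cox19 (adjusted p = 0.0150), both higher in the knockout. The list drawn up for motor partners also held Ghitm, Hscb and Mgarp, which are not parts of the motor, and 6 of its 7 tested genes were positive. Dnajc19, the J-protein bound by Pam16, was at 392 ± 225 CPM in the knockouts, against 173 ± 76.4 CPM in the controls (log2 fold change 1.12 ± 1.36). Hspa9, the motor's heat shock protein, was at 338 ± 137 and 199 ± 232 CPM (0.89 ± 1.49). Among substrates of the disulfide relay with paired cysteines, 10 of 11 tested genes were positive. Cox17, a copper chaperone, was at 1155 ± 149 CPM in the knockouts, against 821 ± 136 CPM in the controls (0.57 ± 0.52), and Ndufb7 and Ndufs5 of complex I at 1019 ± 374 and 821 ± 189 CPM in the knockouts, against 639.9 ± 155 and 395 ± 366 CPM in the controls. Summed over the 16 substrates, the knockouts held 6451, 7439 and 6259 CPM and the controls 5212, 5977 and 3161 CPM, so that all knockouts lay above all controls. None of the other related sums did so. Of single tested genes 10.4% did so, which is not a share for sums. The groups overlapped once Chchd2 or Ndufs5 was left out of the sum. Control 3, with its raised endothelial and Müller glia markers, was again the lowest.

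Partners in the other lists went both ways. Of outer membrane partners 3 of 6 tested genes were positive, and Vdac3, an anion channel, was at 330.4 ± 91.3 CPM in the knockouts, against 685 ± 402 CPM in the controls (-1.06 ± 0.82). In the cristae list 1 of 3 was positive, Immt, which holds cristae junctions, with 634, 2141 and 0 counts in the knockouts, against 2, 0 and 169 in the controls. Matrix chaperones and presequence handling had 1 of 3 positive, Hspe1 of the folding chamber, at 804 ± 214 and 394 ± 317 CPM (1.12 ± 0.84), while its partner Hspd1 had 153, 1735 and 0 counts in the knockouts, against 2845, 0 and 0 in the controls. Quality-control proteases and their partners had 4 of 10 positive and 6 negative. Parl, a rhomboid protease of the inner membrane, was at 74.8 ± 61.3 CPM in the knockouts, against 212 ± 238 CPM in the controls (-1.63 ± 2.68), the prohibitin gene Phb2 at 34.2 ± 36.1 and 67.7 ± 109.6 CPM (-1.22 ± 3.25), the matrix protease Clpp at 147 ± 131 and 205 ± 178 CPM (-0.53 ± 2.60), and Yme1l1, which degrades inner membrane proteins, at 136 ± 34.1 and 71.4 ± 47.5 CPM (0.94 ± 2.65).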

How the data were processed

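Bulk RNA sequencing of 6 retinal ganglion cell libraries was analysed from 2 deposited tables with 1 column per sample. Libraries came from 1 ng of total RNA (RNeasy Micro extraction, VAHTS Universal V6 preparation), per the labels' protocols. HISAT2, HTSeq, fastp, DESeq2 and R 3.2.0 are named with the mm10 build, per the submitters' processing notes, and the role of each, the annotation and the strand setting were not given in the sources used here. The authors deposited raw counts per gene. The FPKM values the authors deposited equal those counts divided by the column total and a fixed gene length (largest relative deviation 6.41e-07), so they carry no further scaling and were used to compare levels between genes.

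CPM are counts over the column total. The genotypes were compared with edgeR 4.0.16 in R 4.3.3 (TMM, filterByExpr, robust quasi-likelihood F test, genotype as the only term, Benjamini-Hochberg over 5727 genes, threshold 0.05). The SE is the log2 fold change divided by the root of F. DESeq2 1.42.0, run on the whole table with missing adjusted p left missing, and limma 3.58.1 were alternatives, and each count test was run on simulated data first. At a spread like that of these libraries DESeq2 also called genes simulated without a change. The simulation gave every gene the same spread, so it does not measure how many calls in these data are false. Sums and detection numbers over the members carry no test. Replicate numbers shared by both genotypes were not taken as pairs in the main fit, and the labels state no pairing. All members could be named, with statistics for those with an unadjusted p under 0.1 or the highest mean CPM of their role group, and up to 4 genes by p of each related list. The members and lists were chosen with earlier results of these data known. Start regions and coordinates are from RefSeq GRCm38.p6, in which all 37 symbols were found, and exon overlaps from GENCODE M21 on the same build. Reads shared with processed pseudogenes were not examined.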

Additional observations from a re-analysis of the deposited data

How the results depend on the processing

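Every edgeR alternative, the limma fits on log2(FPKM + 1) and log2(FPKM + 0.1), and every fit with 1 library left out called 0 import genes. DESeq2 called 3 import genes, 2 genes of the related lists and 885 genes in all, and limma voom called 1, 0 and 85. With 1 library left out, edgeR called 0 to 7 genes in all, with 2, 0 and 0 without knockouts 1, 2 and 3 and 7, 3 and 4 without controls 1, 2 and 3. The number of tested import genes with a positive log2 fold change, 18 of 26, ran from 16 with DESeq2's size factors to 23 of 26 with limma voom. With 1 library left out, the filter kept 27 to 29 import genes. The positive ones then ran from 17 (of 27 without knockout 2, of 29 without control 2) to 23 of 28 without control 1. The difference in the mean number of import genes detected, 7.67, ran from 6.5 to 8.5 over thresholds, thinning and libraries left out.

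Small fold changes turned sign. For Timm8b, -0.01 became 0.02 without TMM scaling, 0.17 with the replicate block, 0.41 with limma voom and 0.10 with both FPKM settings, and ran from -0.35 to 0.71 with 1 library left out. For Immp1l, 0.10 became -0.03 with DESeq2's size factors and with DESeq2, -0.02 without the low-count filter, 7.35 with the replicate block, 6.42 with limma voom, and 4.20 and 5.42 in the FPKM fits, and ran from -0.53 to 7.90. Chchd4 kept its sign, with 0.89 becoming 11.11 with the block and 6.39 with limma voom. For Timm17a, -0.72 became 0.06 with limma voom and ran from -1.13 to 0.70, and Timmdc1 ran from -0.77 to 11.74. The cause was not tested. The summed import gene level differed by 657 CPM and ran from 80.3 to 1810 CPM with 1 library left out. It was 619 CPM with TMM, -69.6 CPM with DESeq2's size factors, 1000 CPM without Timm17a and 734 on the FPKM scale. The counts of genes whose groups did not overlap, the fold bounds with a library left out and the sums with a gene left out were added after seeing the data.

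The deviations of libraries with the same replicate number from their group means correlated at -0.0239, 0.0293 and -0.00739 over 5727 genes. Those of libraries with different numbers correlated at -0.0461 to 0.0512. With the large spread between these libraries, such correlations cannot decide whether the numbers pair them. With the replicate block edgeR called 0 genes. The biological coefficient of variation was 2.04.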
